A study of Mus musculus with 126 samples.

Results

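The 33 genes described here code for the enzymes and transporters that carry glucose to pyruvate and lactate, and for the oxygen-sensing factor HIF-1 with its hydroxylases and well-known targets. They were taken by symbol from an expression table of 126 single cells and 48490 gene identifiers, and 1 identifier was used for each of the 33 symbols. Of these, 20 belong to glucose entry, glycolysis and lactate handling and 13 to hypoxia signalling. The cells came from the endolymphatic sac, the blind pouch of the inner ear that regulates the volume and ion content of endolymph, at E14.5 of mouse embryonic development. The labels give 33 cells as wild-type and 93 as carrying 1 copy of Sox9 Y440X, a premature stop allele of the transcription factor SOX9, over a wild-type copy (Sox9 Y440X/+, called mutant here). Both groups share organ, age and the Smart-seq2 protocol, which amplifies whole transcripts from cells handled one by one and has no molecular identifiers. No strain, animal or litter is named, so a genotype stands as 1 sample however many cells it has, no test between groups was made, and every SD below is over cells.

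Glycolysis splits glucose into pyruvate and yields ATP without oxygen. Lactate dehydrogenase then turns pyruvate into lactate or back. It is built from A subunits, coded by Ldha and abundant in strongly glycolytic tissues, and B subunits, coded by Ldhb and abundant in oxidative ones. When oxygen is low, the EGLN prolyl hydroxylases no longer mark HIF-1α for destruction, and HIF-1 binds short hypoxia response elements and activates most glycolytic genes along with Vegfa, Bnip3, Adm and Car9. HIF-1α is controlled mainly as a protein, which RNA values do not show. In the sac, the Foxi1-expressing mitochondria-rich cells carry proton pumps and the anion exchanger pendrin, coded by Slc26a4, and are set in an epithelium of other cells.

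Promoters of 5 members are shown because these genes stood highest or lowest in the Foxi1-expressing mutant cells described further on and differ in the hypoxia motif they hold. The sequences are RefSeq's for GRCm38.p6, read 5′ to 3′ on the strand of the gene and limited to bases before the gene. Capitals mark the hypoxia response cores ACGTG and GCGTG and, for a match on the other strand, CACGT and CACGC. The windows are chrX:106186850-106187099 (plus strand) for Pgk1, chr19:41911621-41911870 (plus) for Pgam1, chr6:142507958-142508207 (minus) for Ldhb, chr13:6648778-6649021 (minus) for Pfkp and chr4:119108495-119108710 (plus) for Slc2a1.
Pgk1: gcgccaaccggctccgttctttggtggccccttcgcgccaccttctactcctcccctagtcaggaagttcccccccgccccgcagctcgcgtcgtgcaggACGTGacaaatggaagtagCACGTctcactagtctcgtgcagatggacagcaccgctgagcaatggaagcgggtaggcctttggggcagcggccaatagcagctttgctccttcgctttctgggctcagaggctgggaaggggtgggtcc
Pgam1: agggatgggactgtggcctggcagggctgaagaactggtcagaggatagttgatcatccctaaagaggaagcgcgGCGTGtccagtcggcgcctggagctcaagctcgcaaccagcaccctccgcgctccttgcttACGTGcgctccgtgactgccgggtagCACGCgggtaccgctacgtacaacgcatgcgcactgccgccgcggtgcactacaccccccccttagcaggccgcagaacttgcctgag
Ldhb: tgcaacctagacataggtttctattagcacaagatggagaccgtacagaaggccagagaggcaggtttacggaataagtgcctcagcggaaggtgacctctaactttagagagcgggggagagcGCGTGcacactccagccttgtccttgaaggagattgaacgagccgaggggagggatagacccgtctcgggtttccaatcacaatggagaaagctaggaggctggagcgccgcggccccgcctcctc
Pfkp: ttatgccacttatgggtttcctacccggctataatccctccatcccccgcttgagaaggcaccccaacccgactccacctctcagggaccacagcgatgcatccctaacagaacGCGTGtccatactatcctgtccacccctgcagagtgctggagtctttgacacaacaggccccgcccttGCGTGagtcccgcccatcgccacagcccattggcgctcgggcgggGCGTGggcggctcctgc
Slc2a1: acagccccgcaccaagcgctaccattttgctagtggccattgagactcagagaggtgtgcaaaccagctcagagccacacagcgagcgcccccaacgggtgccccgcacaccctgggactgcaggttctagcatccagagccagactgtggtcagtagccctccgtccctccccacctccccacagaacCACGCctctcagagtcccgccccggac
Pgk1 holds the core ACGTG on both strands, and Pgam1 holds ACGTG and GCGTG. The Ldhb, Pfkp and Slc2a1 stretches hold GCGTG only, although the full RefSeq windows of Slc2a1 also hold ACGTG. RefSeq windows of 250 bases before to 50 bases after a start were found for 31 of the 33 members, with 44 windows in all, and not for Bnip3l and Ndrg1. ACGTG, searched on both strands, was in 54.5% of the 44 member windows, 26.9% of the windows of all genes compared between the genotypes and 19.6% of all windows. GCGTG was in 54.5%, 53.5% and 32.4% of them, so that the members stood above other expressed genes for ACGTG and close to them for GCGTG. The E-box CACGTG, which contains ACGTG, was in 9.09% of member windows, 10.7% of those of compared genes and 7.15% of all. The forkhead sequences TGTTTAC and TATTTAC, both strands, were in 1 (2.27%) and 0 member windows, 2.32% and 1.23% of those of compared genes and 3.65% and 3.04% of all. A match describes letters only, not binding.

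Some features of the cells bear on every value below. The FPKM of a cell carries no read number, so depth is unknown, and the number of genes listed above 0 stands in for it. Its median was 5329 over the wild-type cells and 4423 over the mutant ones. Summed over all genes, the FPKM of a cell came to 60902 to 16361089, with a median of 462792. The main values were not rescaled for this, so FPKM of single cells are not on a common scale. All 93 mutant cells and 1 wild-type cell have titles beginning with P9, an undefined prefix, and the other 32 wild-type cells have P10, so the genotype and the prefix cannot be told apart. A Y-linked transcript reached 1 FPKM in 32 of the 33 wild-type cells but in 4 of the 93 mutant ones, so the genotypes also differ in the sex of the embryos they mostly came from. Of the 4 mutant-labelled cells with such a transcript, 2 were Foxi1-high and 2 were Aldh1a3 dominant. The allele is a nonsense change that FPKM cannot show, and Sox9 itself had medians of 10 and 10.2 FPKM in the 27 wild-type and 70 mutant epithelial cells compared below. Of the 33 members, 16 overlap another gene in the annotation and 7 of them a coding gene. Pfkp overlaps Pitrm1, Tpi1 overlaps Spsb2, and Aldoa overlaps Fam57b and another coding entry also named Aldoa. Since the strand setting is not given, the reads of overlapping genes cannot be separated.

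Cells with Epcam, the epithelial adhesion molecule, at 1 FPKM or more and Foxi1 below 10 FPKM are called Foxi1-low epithelial, and there were 27 wild-type and 70 mutant ones. All 8 epithelial markers were found in both groups, and Slc26a4 was listed at 0 in every one of these cells. Mesenchymal, endothelial, immune and red blood cell markers each summed to a median of 0 FPKM in both. The highest mesenchymal sum was 1093 for the wild type and 94.7 for the mutant. The highest red blood cell sum was 257 for the wild type and 118927 for the mutant. Glial and melanocyte markers are given further on. Cells with Foxi1 at 10 FPKM or more are called Foxi1-high: 5 wild-type cells at 28.2 to 522 FPKM and 11 mutant cells at 36.4 to 513 FPKM. The highest Foxi1 in a Foxi1-low cell was 0.99 FPKM, so no cell lay near the threshold. The remaining cells were below 1 FPKM of Epcam.

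In the wild-type epithelium most steps of glycolysis were covered by 1 abundant gene each, while of the 13 hypoxia members Mif, Bnip3l and Hif1a alone had a median above 0. Aldoa (aldolase A), at a median of 364 FPKM, was the highest member, followed by Ldhb at 276, Mif at 239, Ldha at 236, Gapdh at 229 and Eno1 at 202. The neighbours in this order did not differ beyond their spread, since the cells of each gene ranged over more than the gaps between them: Gapdh alone went from 81.2 to 557 FPKM. In mutant cells the order began with Ldha at 303, Aldoa at 273, Mif at 240 and Eno1 at 238, and Ldhb followed at 139. At the other end, all members outside the 16 highest had a median of 0 in wild-type cells. The plot of mean levels shows both genotypes side by side.

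**Figure D1:**
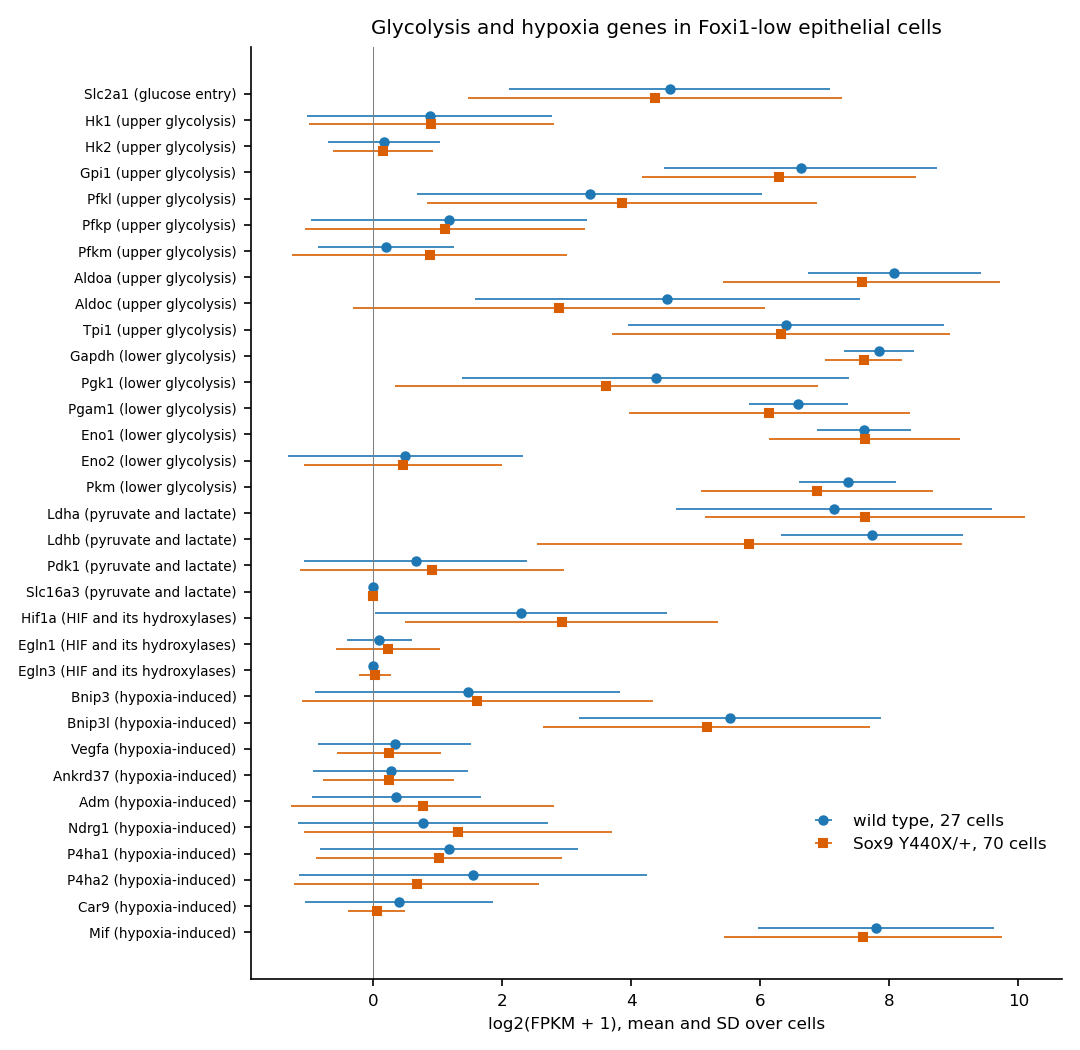
Mean log2(FPKM + 1) of the 33 members in Foxi1-low epithelial cells, by role, with bars of 1 SD over cells: blue circles for 27 wild-type cells, orange squares for 70 mutant cells. Aldoa, Gapdh, Mif, Eno1, Ldha and Pkm lie near the right edge in both genotypes, and Ldhb (7.74 against 5.83) and Aldoc (4.55 against 2.88) show the widest gaps.

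The genotypes differed most, among these genes, at lactate dehydrogenase and aldolase. Ldhb and the brain-type aldolase Aldoc were lower in mutant cells, and Hif1a, the liver-type phosphofructokinase Pfkl and, just short of the threshold, Ldha were higher. To allow for the lower gene number of mutant cells, each difference of mean log2(FPKM + 1), mutant minus wild type, was taken relative to the median difference of all genes in the same of 20 bins of mean level. The median difference over all 6006 compared genes was -0.29 before this step. A gene was compared when the mean of the groups' shares of cells at 1 FPKM or more was at least 25%, and was counted as past the fold at a level-matched difference of 1 or more, or -1 or less. Of the 33 members 18 passed that filter, 2 were past the fold upward (the background was 5.74% of the compared genes) and 2 downward (6.44%). Counts this small are a description of the members and do not set them apart from other genes. The median member difference was 0.20 against 0.00 over all compared genes, with 12 members above 0 and 6 below.

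Ldhb was present in every wild-type cell, at 7.01 FPKM in the lowest, 276 in the median and 971 in the highest of 27. In mutant cells it ran from 0 through a median of 139 to 850.2, and 55 of 70 cells reached 1 FPKM. The ranges overlapped over most of their length, and the mutant group differed by the cells near 0: the median of the cells that had Ldhb was 276 (wild type) and 195 (mutant). The level-matched difference was -1.38, from means of 7.74 ± 1.41 (SD, n = 27) and 5.83 ± 3.30 (SD, n = 70) on the log2(FPKM + 1) scale, and a randomly paired mutant cell was higher than a wild-type cell in 33.6% of pairs. Taken as the log2 of the mean FPKM, which gives less weight to cells at 0, the value was only -0.29.

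Aldoc ran from 0 to 236 FPKM with a median of 52.95 in wild-type cells, and from 0 to 403 with a median of 0.337 in mutant cells. It was detected in 20 of 27 and 33 of 70 cells. Again the groups overlapped, and the mutant group held more cells at 0. The level-matched difference was -1.17, from 4.55 ± 2.98 and 2.88 ± 3.19 (SD, log2(FPKM + 1)), and it was -0.42 on the log2 of the mean FPKM. Without the 2 mutant-labelled epithelial cells with a Y-linked transcript, Ldhb was at -1.47 and Aldoc at -1.25.

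Ldha ran from 0 to 690.0 FPKM with a median of 236 in wild-type cells and from 0 to 1289.8 with a median of 303 in mutant cells. It was detected in 25 of 27 and 65 of 70 cells, so that here the level and not the detection differed. Its level-matched difference was 0.95, from 7.14 ± 2.45 and 7.62 ± 2.48. This value sits just under the threshold, while Hif1a and Pfkl sit just over it, at 1.004 and 1.0005.

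Hif1a, which codes for the oxygen-regulated subunit of HIF-1, ran from 0 to 64.1 FPKM in wild-type cells, with a median of 3.37, and from 0 to 75.5 in mutant cells, with a median of 15.5. It was detected in 16 of 27 and 43 of 70 cells, with means of 2.29 ± 2.26 and 2.92 ± 2.43. Pfkl, the enzyme of the main control step of glycolysis, had medians of 18.4 FPKM (0 to 105) and 49.4 (0 to 603), with detection in 18 of 27 and 46 of 70 cells and means of 3.35 ± 2.67 and 3.85 ± 3.02. Both genes overlapped fully between the genotypes. Both fell below the threshold without the wild-type cell titled P9 (0.91 and 0.88) and without the wild-type cell that lacked Y-linked transcripts (0.90 and 0.86), and each was 1 of 27 cells.

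Glucose entry had nearly the same median in both genotypes: Slc2a1, the transporter GLUT1, had a median of 47.2 FPKM (0 to 178) in wild-type and 48.7 (0 to 363) in mutant cells, with means of 4.59 ± 2.49 and 4.36 ± 2.90 and a level-matched difference of 0.21. Of the hexokinases that trap glucose, Hk1 was detected in 5 of 27 and 14 of 70 cells (means 0.87 and 0.90) and Hk2 in 1 and 2 cells (0.17 and 0.16), and neither passed the filter. Gpi1, glucose phosphate isomerase, averaged 6.62 ± 2.11 and 6.29 ± 2.12, a level-matched difference of 0.19. The other phosphofructokinases were scarce, with Pfkp at means of 1.17 and 1.12 and Pfkm at 0.20 and 0.88. Aldoa averaged 8.08 ± 1.34 and 7.57 ± 2.15 (-0.04), and Tpi1, triose phosphate isomerase, 6.397 ± 2.45 and 6.32 ± 2.62 (0.45).

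Among the abundant members, Gapdh, Pkm and Eno1 of the lower part of the pathway were the most even over cells. Gapdh was in every cell, at 81.2 to 557 FPKM with a median of 229 in wild-type and 41.3 to 370.2 with a median of 195 in mutant cells, and its level-matched difference was 0.22 (7.84 ± 0.54 and 7.60 ± 0.60). Pkm, pyruvate kinase, ran from 42.8 to 379 FPKM with a median of 172 and from 0 to 408 with a median of 174, a difference of -0.01 (7.36 ± 0.75 and 6.88 ± 1.80). Eno1, the main enolase, ran from 56.4 to 420.2 with a median of 202 and from 1.26 to 765 with a median of 238, a difference of 0.48 (7.60 ± 0.73 and 7.62 ± 1.47). These 3 genes overlapped between genotypes over nearly the whole range. Near-identical copies elsewhere in the genome make 2 of them uncertain: 75 copies of Gapdh held 66.2% of the mean FPKM summed over gene and copies, and 3 copies of Eno1 held 25.7%.

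Pgk1, the X-linked phosphoglycerate kinase and a classical hypoxia-inducible gene, was the most uneven of the lower steps. It ran from 0 to 195 FPKM with a median of 67.3 in wild-type cells and from 0 to 257 with a median of 20.4 in mutant cells, and was detected in 19 of 27 and 40 of 70. Its level-matched difference was -0.26, from 4.38 ± 2.99 and 3.62 ± 3.28. Pgam1, phosphoglycerate mutase, averaged 6.59 ± 0.77 and 6.14 ± 2.18 (0.07), and the neuronal enolase Eno2, detected in 2 and 7 cells, averaged 0.50 and 0.47.

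Beyond lactate dehydrogenase, the pyruvate and lactate genes were scarce. Pdk1, which slows pyruvate entry into mitochondria, was detected in 4 and 13 cells (means 0.66 and 0.92). Slc16a3, the lactate exporter MCT4, was listed at 0 in each of these cells, in 0 of 27 and 0 of 70. A count of 0 allows up to 11.1% and 4.29% of cells with a listed value, and says nothing of transcripts that were not captured. The hydroxylase genes Egln1 (1 and 7 cells, means 0.10 and 0.23) and Egln3 (0 and 1 cells, 0.00 and 0.03) were near the bottom as well.

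Of the 10 hypoxia-induced members only Bnip3l, a mitophagy receptor, and Mif, a cytokine, were abundant. Bnip3l averaged 5.53 ± 2.35 and 5.17 ± 2.53 with a level-matched difference of 0.07, and Mif 7.79 ± 1.83 and 7.59 ± 2.16 with 0.26. P4ha1, a collagen prolyl hydroxylase, was detected in 8 of 27 (0 to 43.2 FPKM, median 0) and 17 of 70 cells (0 to 65.1, median 0), a difference of -0.04 from means of 1.18 ± 1.998 and 1.01 ± 1.91. Bnip3, the partner of Bnip3l, was in 8 and 19 cells (1.46 ± 2.37 and 1.61 ± 2.72) with 0.34.

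The secreted and pH-regulating targets that often report hypoxia were below the filter. Vegfa, the vascular growth factor, was detected in 3 of 27 cells (0 to 62.4 FPKM, median 0, mean log2 0.33) and in 6 of 70 (0 to 12.7, median 0, mean 0.24). Adm, adrenomedullin, was in 2 and 9 cells (means 0.36 and 0.77), and Car9, a carbonic anhydrase, in 2 and 1 (0.40 and 0.05). Ankrd37 was in 2 and 4 cells (0.27 and 0.24), Ndrg1 in 4 and 17 (0.77 and 1.31) and P4ha2 in 7 and 9 (1.55 and 0.67). None of these 6 can be compared at this detection.

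Other lists of genes moved with genotype as well. The 10 dissociation-response genes, early genes such as Fos and Jun and heat-shock genes that are induced when tissue is taken apart, were all detected in both groups and summed to 1136 to 5567 FPKM (median 2712) in wild-type and 286 to 3120 (median 1480.5) in mutant epithelial cells. The 6 glial and melanocyte markers summed to 0 to 275 FPKM (median 25.4) in wild-type and 0 to 132 (median 0) in mutant epithelial cells, and in Aldh1a3 dominant cells, defined further on, to medians of 40.9 and 0. Nearly all of this was Dct, dopachrome tautomerase, detected in 15 of 27 and 22 of 70 cells, while Foxd3 and Tyr were at 0 in every one of these cells. The part of both lists in the genotype differences was not tested.

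Lactate dehydrogenase was also read as a share within each cell, which does not depend on the scale of that cell. Ldha made up a median of 47.8% of Ldha plus Ldhb FPKM over the 27 wild-type cells, with a range of 0 to 97.1%, and of 69.1% over the 69 mutant cells with either gene, with a range of 0 to 100%. It was the larger part in 13 of 27 wild-type cells (48.1%, exact Clopper-Pearson 95% interval 28.7 to 68.1%). Among mutant cells it was the larger part in 50 of 69 (72.5%, 60.4 to 82.5%). These intervals cover counting error only, not the spread between animals, and they overlapped. The wild-type cells with both genes at 1 FPKM or more numbered 25 of 27 and the mutant ones 51 of 70, and Ldha alone reached it in 0 and 14.

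The share was lowest in 1 class of wild-type cells. Epithelial cells were split by the retinoic acid synthesising enzyme they favoured: Aldh1a1 dominant cells had at least 1 FPKM of it and at least 2 times as much as of Aldh1a3, and Aldh1a3 dominant cells the reverse. There were 9 wild-type and 32 mutant Aldh1a1 dominant cells and 15 and 34 Aldh1a3 dominant ones. In Aldh1a1 dominant cells the Ldha share had medians of 64.8% (37.9 to 74.1%) in wild-type and 70.6% (2.0003 to 100%, n = 31) in mutant cells. In Aldh1a3 dominant cells the medians were 30.1% (0 to 82.5%) and 66.3% (0 to 100%). The wild-type Aldh1a3 dominant median was thus lower than the other 3, while single cells of all 4 groups overlapped. With the 2 mutant-labelled Aldh1a3 dominant cells that held a Y-linked transcript left out, the mutant Aldh1a3 median was 69.6%. Without the wild-type cell titled P9 the wild-type one was 35.9%.

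**Figure D2:**
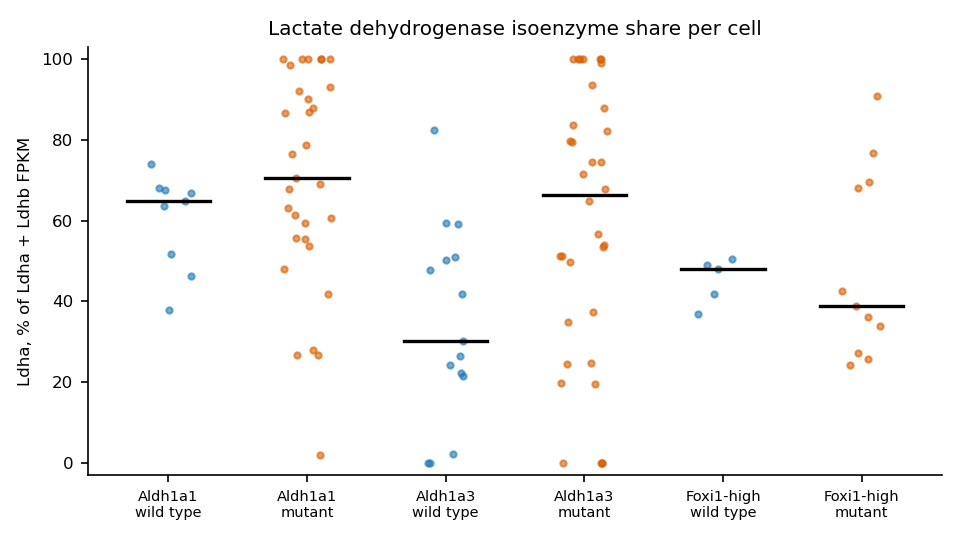
Ldha as percent of Ldha plus Ldhb FPKM in each cell (1 point per cell, black bar at the median), for Aldh1a1 dominant, Aldh1a3 dominant and Foxi1-high cells of wild-type (blue) and mutant (orange) label. The wild-type Aldh1a3 dominant median of 30.1% lies below the mutant one of 66.3%, and several mutant cells of both Aldh1a classes lie at 100%.

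Within the classes, which are parts of the cells compared above, Ldhb and Aldoc were lower in mutant cells too. The genotype differences of Ldha, Hif1a and Pfkl were larger in 1 class. In Aldh1a1 dominant cells 19 members were compared, 1 was past the fold upward (background 14%) and 2 downward (12.8%): Bnip3 at 1.19, Aldoc at -1.75 and Ldhb at -1.53. Detection of Bnip3 stood at 2 of 9 cells in the wild type and 10 of 32 in the mutant, so it passed the filter through the mutant cells. The next highest were Pfkp at 0.99 and Gpi1 at 0.95, and the third lowest was Pgam1 at -0.53. Detection of Pfkp was likewise below the filter in the wild-type cells. Both Bnip3 and Pfkp entered through the mutant cells, so they had to be higher. In Aldh1a3 dominant cells 18 were compared, 3 were upward (background 9.7%) and 2 downward (11.7%): Ldha at 1.72, Hif1a at 1.67, Pfkl at 1.15, Ldhb at -1.33 and Aldoc at -1.25. Pgk1 followed at -0.98. The classes share no cells but come from the same 1 sample per genotype, so they do not replicate each other, and whether they differ was not tested. The share of all compared genes past the fold in both classes was not computed. Without the wild-type P9 cell Aldoc in Aldh1a3 dominant cells was at -0.96.

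The cell values show where these differences lie. Ldhb was detected in all 9 wild-type Aldh1a1 dominant cells (74.1 to 971 FPKM, median 276) and in 25 of 32 mutant ones (0 to 579, median 113). In Aldh1a3 dominant cells it was in 15 of 15 (64.7 to 857, median 254) and 28 of 34 (0 to 850.2, median 167). In both classes, no wild-type cell was below 64.7 FPKM and several mutant cells were at 0. Ldha in Aldh1a3 dominant cells had medians of 181 FPKM in wild-type (0 to 564) and 283 in mutant cells (0 to 1289.8), whereas in Aldh1a1 dominant cells it was high in both, at medians of 331 (163 to 690.0) and 360 (0 to 848).

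**Figure D3:**
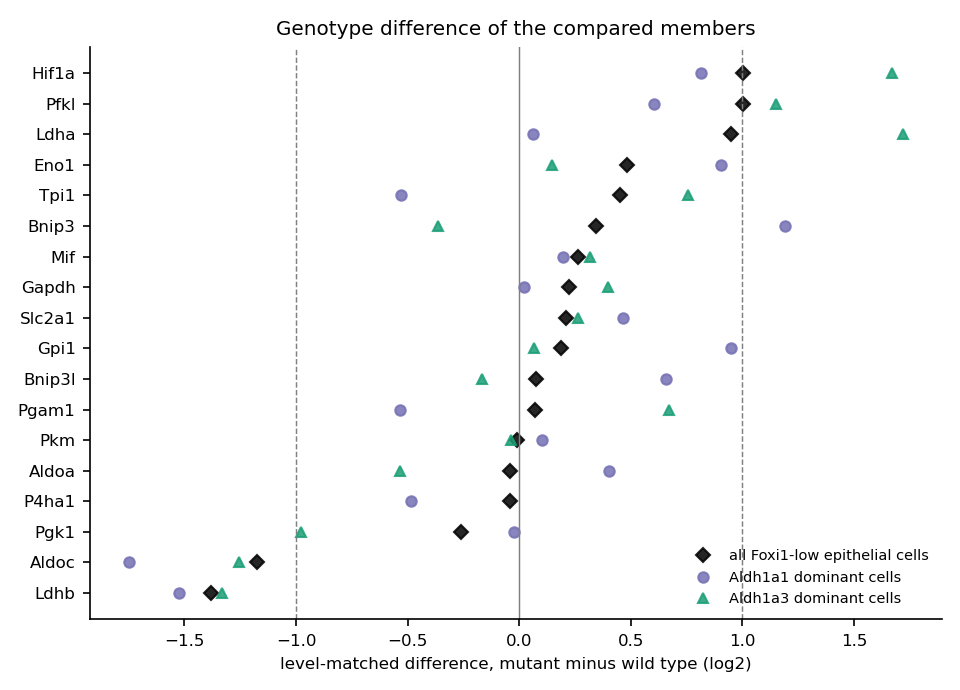
Level-matched difference of log2(FPKM + 1), mutant minus wild type, for the 18 members compared in Foxi1-low epithelial cells (black diamonds), and for the same genes in Aldh1a1 dominant (purple circles) and Aldh1a3 dominant cells (green triangles) where they passed the filter. Dashed lines mark 1 and -1. Ldhb and Aldoc lie left of -1 in all 3, and Ldha and Hif1a reach 1.72 and 1.67 in Aldh1a3 dominant cells only.

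Between the classes of 1 genotype, few members were past the fold in wild-type or mutant cells. In wild-type cells, 18 members were compared, 3 were higher past the fold in Aldh1a1 dominant cells (background 17.6%) and 0 lower (16.6%). They were Ldha at 2.08, P4ha1 at 1.61 and Aldoc at 1.15, and the lowest were Bnip3 at -0.92, Gpi1 at -0.62 and Bnip3l at -0.39. Detection of Bnip3 was below the filter in the Aldh1a1 dominant cells. It passed through the Aldh1a3 dominant cells, so it had to be lower. In mutant cells, 18 were compared, 2 were higher (10.9%) and 3 lower (8.89%). Pgk1 at 1.62 and Aldoa at 1.39 were higher, with Aldoc next at 0.76, and Tpi1 at -1.27, Pgam1 at -1.27 and Hif1a at -1.10 were lower. No member was past the fold in both genotypes, and 7 of the 18 had opposite signs. The share of all compared genes that were alike in both genotypes was not computed, so this describes the members only. These counts are too small to set the members apart from the background.

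Cell values are given for a pair of members picked from the extremes in mutant cells. Pgk1 was detected in 25 of 32 mutant Aldh1a1 dominant cells (0 to 191 FPKM, median 45.9) and in 13 of 34 Aldh1a3 dominant cells (0 to 257, median 0). Tpi1 went the other way, with medians of 93.9 FPKM (0 to 306) and 185 (0 to 684). In wild-type cells Pgk1 had medians of 81.7 (0 to 158) and 44.2 (0 to 195), and Tpi1 of 126 (56.9 to 311) and 194 (0 to 400.0). These medians lay in the same order as in the mutant, with wild-type level-matched differences of 0.60 for Pgk1 and 0.03 for Tpi1. All 4 pairs overlapped.

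The largest differences of this gene set separated Foxi1-high from Foxi1-low epithelial cells. In mutant cells, 21 members were compared and 12 were higher past the fold in the 11 Foxi1-high cells, against a background of 13.5% of 6259 genes, while 3 were lower (13.8%). The median member difference was 1.43 against 0.00 for all compared genes. Of the 21, Pfkp, Ankrd37, Ndrg1 and P4ha1 were below 25% detection in Foxi1-low cells and entered through the Foxi1-high cells, so the first 3 had to be higher. Among genes detected in at least 25% of the Foxi1-low cells, a rule added after the data were seen, 17 members remained, of which 9 were higher (background 11.4%) and 2 lower (13.8%), with a median of 1.04. In wild-type cells, with only 5 Foxi1-high cells, 19 members were compared, 7 were higher (background 16.5%) and 1 lower (17.6%), and the median was 0.87. By the added rule, which leaves out Pfkp and Ndrg1, 4 of 17 were higher (background 15%) and 2 lower (16.4%), with a median of 0.79. Of the 19 compared in both genotypes, 14 were above 0 in both, 4 below 0 in both and 1, Pfkl, opposite. The 7 past the fold upward in both were Pfkp, Aldoa, Pgam1, Ldha, Ldhb, Mif and Ndrg1. Pfkp and Ndrg1 entered through the Foxi1-high cells in both. The share of all compared genes that were alike in both genotypes was not computed, so these shared counts describe the members only. With no filter on detection the median was 0.37 in mutant and 0.36 in wild-type cells, and on the log2 of the mean FPKM it was 0.65 and 0.94.

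**Figure D4:**
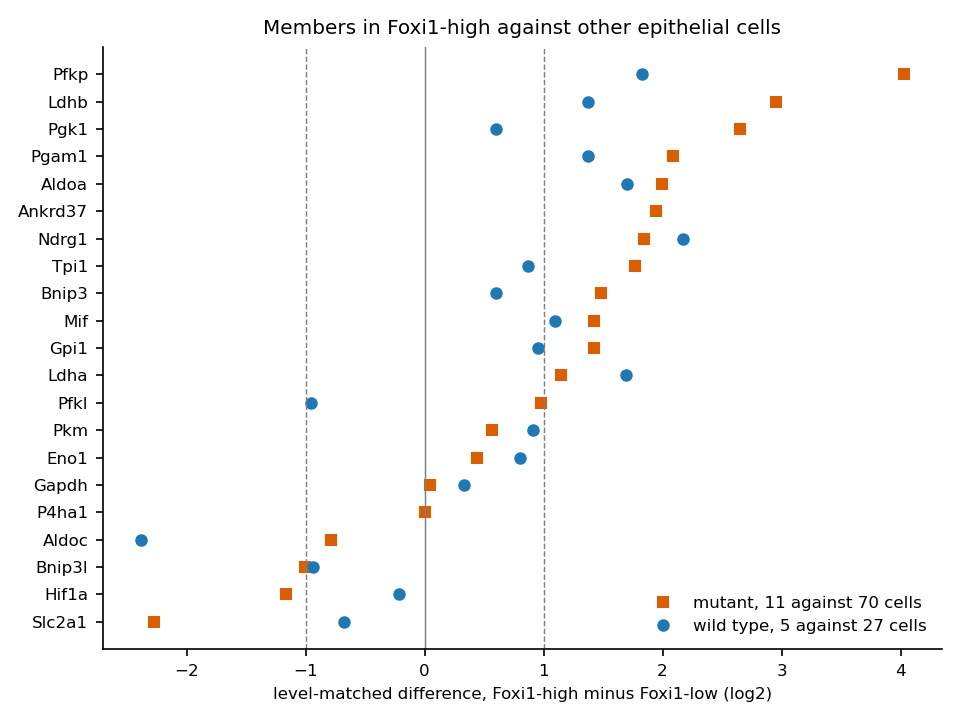
Level-matched difference of log2(FPKM + 1), Foxi1-high minus Foxi1-low epithelial cells, for the 21 members compared in mutant cells (orange squares) and for those of them compared in wild-type cells (blue circles). Dashed lines mark 1 and -1. Pfkp reaches 4.03 in mutant cells, and Slc2a1 (-2.27) and Aldoc (-2.38 in wild type) lie farthest left.

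Phosphofructokinase differed most at Pfkp. This gene, which codes for the platelet-type isoenzyme, ran from 0.538 to 250.03 FPKM with a median of 83.7 in the 11 mutant Foxi1-high cells, against a median of 0 (0 to 99.9) in the 70 mutant Foxi1-low cells. It was detected in 10 of 11 and 14 of 70 cells, and the level-matched difference was 4.03 (5.83 ± 1.94 against 1.12 ± 2.168). Pfkp passed the filter through the Foxi1-high cells in both genotypes, so it had to be higher. In the 5 wild-type Foxi1-high cells Pfkp was at 0, 0.379, 0.804, 315 and 492 FPKM, against a median of 0 (0 to 77.2) in Foxi1-low cells, a difference of 1.82. The wild-type cells thus fell into 3 with almost none and 2 with more than any Foxi1-low cell.

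Those 2 wild-type cells were the ones with Slc26a4 at 1 FPKM or more, a split made after the values were seen. They also held the highest Ldhb (1058 and 1464 FPKM), Ldha (851 and 1016), Pgk1 (260 and 347) and Aldoa (1981 and 2208) of the 5 cells. In the mutant, Pfkp was detected in 7 of 7 Foxi1-high cells with Slc26a4 (40.2 to 250.03 FPKM) and in 3 of 4 without it (0.538 to 123). Ldhb (medians of 827 and 281), Pgk1 (199 and 84.7) and Aldoa (871 and 622) were likewise higher with Slc26a4 there, but Ldha was lower, at medians of 496 and 704 FPKM. As a share of the 3 phosphofructokinase genes, Pfkp had a median of 59.6% in mutant Foxi1-high cells (1.27 to 83.4%), where it was the larger part in 6 of 11, and of 45.02% in the 4 wild-type ones with any of these genes (0 to 100%), where it was the larger part in 2. The median was 0% in Foxi1-low cells of either genotype. Without the 2 mutant-labelled Foxi1-high cells with Y-linked transcripts the mutant share was 46.1% and the Pfkp difference 3.85. Pfkl stayed detected in all 11 mutant Foxi1-high cells (16.6 to 144 FPKM, median 43.5) but lay at 0, 0, 27.4, 47.1 and 59.4 in the 5 wild-type ones, with level-matched differences of 0.98 and -0.95.

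Lactate dehydrogenase was high in both its genes. Ldhb ran from 69.98 to 1537 FPKM with a median of 668 in mutant Foxi1-high cells, a difference of 2.96 from Foxi1-low cells (8.98 ± 1.38 against 5.83 ± 3.30), and stood at 281, 403, 419, 1058 and 1464 in the wild-type cells, a difference of 1.37. Ldha ran from 133 to 868 FPKM (median 574, difference 1.15) and stood at 203, 386, 413, 851 and 1016 (1.69). All 16 Foxi1-high cells had both genes. The Ldha share was 48.001% (36.8 to 50.6%) in wild-type and 38.8% (24.2 to 90.8%) in mutant Foxi1-high cells, so in the mutant it was lower than the 69.1% of Foxi1-low cells and in the wild type close to their 47.8%.

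Aldoa and Pgam1 of the middle and lower pathway were past the fold in both genotypes, and Pgk1 in the mutant. Aldoa was at 540.4 FPKM or more in every mutant Foxi1-high cell (median 759, highest 1505, difference 1.997) and at 452, 474, 795, 1981 and 2208 in the wild-type cells (1.70). Pgam1 ran from 149.5 to 609 (median 391, difference 2.09) and was at 76.8, 151, 245, 433 and 1100.1 (1.37). Pgk1 ran from 21.1 to 1022 (median 158, difference 2.65) and was at 0, 47.7, 133, 260 and 347 (0.60). Tpi1 (1.77 in mutant and 0.87 in wild-type cells) and Gpi1 (1.43 and 0.95) were past the fold in the mutant. Pkm (0.57 and 0.91), Eno1 (0.44 and 0.81) and Gapdh (0.05 and 0.33) were so in neither, and Gapdh in the mutant was at -0.04 without the cells with Y-linked transcripts.

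Among hypoxia-induced members, Ndrg1, a stress-response gene, was at 0, 0.369, 42.5, 42.9 and 78.6 FPKM in wild-type Foxi1-high cells, the highest difference there (2.172), and at 0 to 157 with a median of 19.4 in mutant ones (1.84). Ndrg1 in both genotypes and Ankrd37 in the mutant passed the filter through the Foxi1-high cells, so they had to be higher. Ankrd37 (1.94), Bnip3 (1.48) and Mif (1.43) were past the fold in mutant cells, although Bnip3 was at 0.77 once the 2 cells holding a Y-linked transcript were left out, with Bnip3 at 0.60 and Mif at 1.10 in wild-type cells, where Ankrd37 was listed at 0 in all 5 Foxi1-high cells. Vegfa, Adm, Car9, Egln1, Egln3, Hk1, Hk2, Pfkm, Eno2, Pdk1, P4ha2 and Slc16a3 were below the filter in both genotypes, and P4ha1, at 0.00 in mutant cells, in the wild type. Adm and Slc16a3 were listed at 0 in all 16 Foxi1-high cells.

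A smaller set was lower. Slc2a1 ran from 0 to 174 FPKM with a median of 2.77 in mutant Foxi1-high cells, against a median of 48.7 in Foxi1-low cells, a difference of -2.27 (2.90 ± 2.83 against 4.36 ± 2.90). In wild-type cells it was at 0, 33.03, 74.3, 85.9 and 94.9 FPKM against a median of 47.2, so all 5 cells were in the range of the others (0 to 178), and the difference was -0.67. Hif1a had a median of 1.49 FPKM (0 to 54.9) in mutant Foxi1-high cells against 15.5 (-1.16), and was at 0, 5.40, 6.18, 13.5 and 25.5 in wild-type ones (-0.22). Bnip3l was at -1.004 in the mutant, or -0.98 without the 2 cells with Y-linked transcripts, and at -0.94 in the wild type. Aldoc, with -2.38 and 3 of 5 cells at 0, was the one member past the fold downward in wild-type cells, and was at -0.79 in the mutant.

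**Figure D5:**
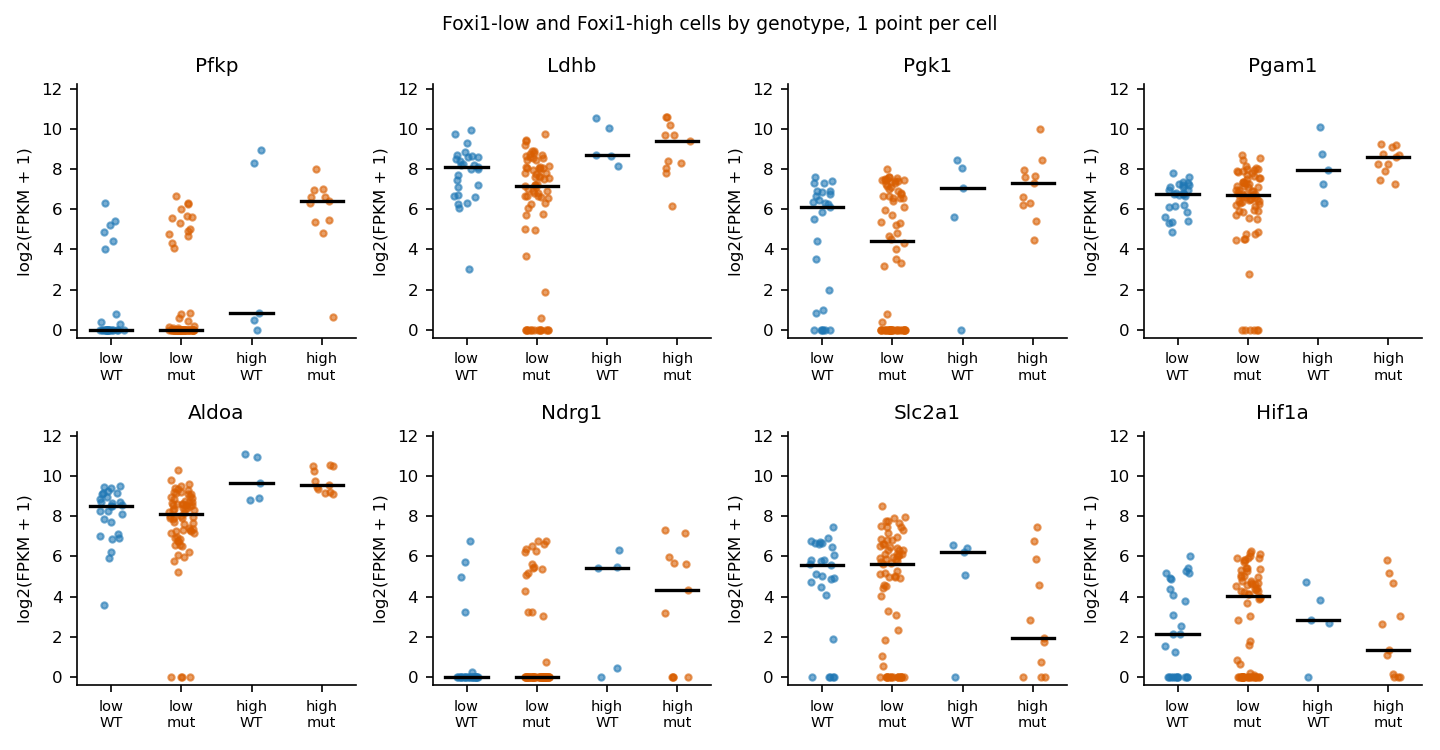
log2(FPKM + 1) of 8 members in each Foxi1-low (low) and Foxi1-high (high) epithelial cell of wild-type (WT, blue) and mutant (mut, orange) label, with a black bar at the median. Pfkp is at or near 0 in most low cells and high in 10 of 11 mutant and 2 of 5 wild-type high cells, whereas Slc2a1 is lower in most mutant high cells.

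Foxi1-high cells had more listed genes than the others (medians of 5983 against 5019 in wild-type and 5068 against 4376 in mutant cells), and the median of all genes was higher by 0.53 and 0.41, which the level matching removes. Of the 8 mitochondria-rich markers, which include Foxi1 itself, 7 were detected in some wild-type cell, with Dmrt2 at 0, and 8 in some mutant cell. They summed to 28.2 to 4388 FPKM in wild-type and 36.4 to 3534 in mutant cells. In 2 of the 5 cells of the wild type and 2 of the 11 of the mutant, Foxi1 was the one marker detected, and the other 12 cells had 3 to 7 of the 8. Of the 8 mesenchymal markers, Col3a1, Pdgfra and Prrx1 were at 0 in all 16 cells, and the list summed to 0 to 1575 FPKM (median 180) in wild-type and 0 to 1363 (median 305) in mutant cells. Dcn, which codes for decorin, made up most of this sum and was detected in 3 of 5 and 7 of 11 cells, including 2 of 2 and 6 of 7 with Slc26a4. The part of this in the results was not tested.

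Within Foxi1-low cells the members' shared level was summed up as a score. The mean log2(FPKM + 1) over the 18 compared members had a median of 5.46 in wild-type (4.35 to 6.89) and 5.44 in mutant Foxi1-low cells (3.31 to 6.66), and of 6.54 and 6.26 in Foxi1-high cells. Across cells it went with the number of listed genes, at Pearson r of 0.35 (n = 27) and 0.51 (n = 70), which share the depth of each cell. Each cell's mean over all genes compared between the genotypes was then removed, which takes out movement that all these genes share. After that step the 153 pairs of members had a median r of 0.04 in wild-type and 0.00 in mutant Foxi1-low cells. Aldoa with Eno1 in wild-type cells (r = 0.56) and Gpi1 with Aldoa in mutant cells (r = 0.32) were the highest pairs.

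The other genes of these pathways, 83 on a list that leaves out the members, gave the same low yield between genotypes. Of the 30 compared, 3 were higher and 3 lower in mutant cells, next to background shares of 5.74% and 6.44%, with a median of 0.00. The highest were Bhlhe40, a hypoxia-inducible repressor, at 1.88 (2.27 ± 2.50 in wild-type and 3.73 ± 2.69 in mutant cells), Pdhb, the beta subunit of pyruvate dehydrogenase E1, at 1.40 (3.33 and 4.23), Tkt, transketolase, at 1.19 (4.65 and 5.40) and Hif3a at 0.71 (1.20 and 1.61). The lowest were Pdha1, the alpha subunit of the same complex, at -1.46 (4.97 ± 2.06 and 3.08 ± 2.98), Plod1, a collagen lysyl hydroxylase, at -1.17 (3.79 and 2.19), Taldo1, transaldolase, at -1.11 (7.32 and 5.68) and Mpc1, a subunit of the mitochondrial pyruvate carrier, at -0.89 (3.45 and 2.18). The partner subunits Pdha1 and Pdhb thus lay on opposite sides, as did Tkt and Taldo1 of the pentose phosphate pathway.

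Between Foxi1-high and Foxi1-low cells the same list gave 13 higher and 2 lower of 37 compared in the mutant (background 13.5% and 13.8%) and 5 higher and 4 lower of 35 in the wild type (16.5% and 17.6%). Of the 13, Car12 (1.91), Got1 (1.37) and Bpgm (1.29) were detected in only 8.57%, 15.7% and 15.7% of mutant Foxi1-low cells. These genes passed the filter through the Foxi1-high cells, so they had to be higher. Got1 did so in the wild type too (1.19, detected in 18.5% of Foxi1-low cells). This list was not counted by the rule on Foxi1-low cells alone, so its higher counts include that selection. The muscle enolase Eno3, picked here after its value was seen, was at 2.84 in mutant cells (7.79 ± 2.75 in Foxi1-high against 4.39 ± 3.63 in Foxi1-low cells) and at 4.42 in wild-type cells (9.58 against 5.05). Mpc1, at 1.89 and 2.43, and Mdh1, cytosolic malate dehydrogenase, at 1.96 and 1.07, were likewise past the fold in both, and Hmox1, haem oxygenase, was at 4.17 in mutant and 0.96 in wild-type cells.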

How the data were processed

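Each of the 126 cells is a library of its own. A single table holds all cells in the unit FPKM, as the authors normalized it for transcript length and for the fragments mapped in a cell. Cufflinks, HTSeq, HISAT2 and SAMtools 0.1.18 are named, with mm10 as the build, in the submitters' processing notes, without role or order. For the strand setting, annotation release and filters, the sources used here give nothing. FPKM keeps no read number, so precision per cell is unknown, and a value of 0 can be a transcript that was not captured.

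Rows with the same identifier were summed. Values were taken as log2(FPKM + 1) and averaged over cells by genotype label, and differences were matched on mean level in 20 bins as described above. A fold change on this scale understates that of low genes. Shares of cells carry exact Clopper-Pearson 95% intervals, and a count of 0 the limit of 3 counts of the total, both for counting error only. Near-identical copies share at least 300 bases at 95% identity (BLAST+ 2.17.0, GENCODE vM21 transcripts). Python 3.11.15, numpy 2.4.6, scipy 1.17.1 and pandas 2.3.3 were used. The level matching was tested on resampled wild-type cells with a group scaled down and some genes changed by set folds. No values were set to 0 there, so that trial does not cover a loss of detection. Doublets were not called, because FPKM is not a count.

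The members and lists were chosen with earlier results of these data known. Single-cell spread is given for the members with the 4 highest and 4 lowest genotype differences and for Slc2a1, Ldha, Ldhb, Gapdh, Pkm, Hif1a and Vegfa, every other member by its means, and the 3 highest and 3 lowest in the other comparisons. The 4 highest and 4 lowest other pathway genes are named. Alternatives covered the pseudocount, scaling, centring, filters, gates, listed genes and cells whose Y-linked transcripts go against their label.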

Additional observations from a re-analysis of the deposited data

How the results depend on the processing

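Under 535 of 575 combinations of a main result and an alternative, the value moved by less than 1 SD over cells or the count stayed within 1.5 times. The 535 include settings that could not alter the result, since leaving out cells of 1 genotype cannot move a comparison within the other, and some settings cannot alter a share. The bound of 1 SD over cells is also wide. Of the 417 values that are not counts, 21 changed sign, all within that bound. They were the medians of the members within the Aldh1a1 and Aldh1a3 classes, between these classes in each genotype, and the genotype difference of the score, which lay between -0.02 and 0.19 and went to between -0.098 and 0.06, so these have no settled direction. No member's difference past the fold changed sign. The cause of the changes below was not tested. The 2 members higher in mutant epithelial cells became 0 with a pseudocount of 10, median-ratio scaling, the log2 of the mean FPKM, centring by all compared genes, detection at 5 FPKM, or without either the wild-type cell titled P9 or the one lacking Y-linked transcripts, and 1 with rescaling to 1000000, a filter of 50%, no filter, or without cells with mesenchymal or cycling markers. The 2 lower ones became 0 with a pseudocount of 10 or the log2 of the mean FPKM and 1 in cells with 3000 to 5000 listed genes. Of the other pathway genes, the 3 higher became 0 with a pseudocount of 10 and 5 in cells with 3000 to 5000 listed genes, and the 3 lower became 7 with a pseudocount of 0.1, 0 with 10, 5 with rescaling and 1 with the log2 of the mean FPKM. Ldhb and Aldoc kept their sign in 19 of 19 alternatives (-2.04 to -0.29 and -1.59 to -0.42) and were past the fold in 16 and 17, while Hif1a and Pfkl, with the same sign in 19, were past it in 9 and 6. For Foxi1-high cells, the mutant median of 1.43 was 0.65 with the log2 of the mean FPKM and 0.37 with no filter, the wild-type one of 0.87 was 0.36 with no filter, and the 3 lower members became 1 with a pseudocount of 10 or the log2 of the mean FPKM. In the wild type, the 7 higher became 4 with centring by all compared genes or with the filter on Foxi1-low cells alone. The 1 lower became 3 with a pseudocount of 0.1 or Foxi1 at 100 FPKM, 4 without cells above 6000 listed genes, 0 with the log2 of the mean FPKM, and 2 with the filter on Foxi1-low cells alone, rescaling (also after leaving out features above 100000 FPKM), a filter of 50%, no filter, detection at 5 FPKM, or without cells with mesenchymal or cycling markers. The wild-type Foxi1-high Ldha share was 41.9% without cells above 6000 listed genes. The filter on Foxi1-low cells alone, rescaling without large features, sums with near-identical copies and leaving out the wild-type cell lacking Y-linked transcripts were chosen after seeing the data. No wild-type Foxi1-high cell had 3000 to 5000 listed genes, so that comparison has no value. No paired analysis was possible because cell numbers pair nothing across genotypes and no test was made. FPKM without depth and 1 sample per genotype limit every value.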

Other observations

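Outside the epithelium, 9 mutant cells below 1 FPKM of Epcam and Foxi1 below 10 FPKM had at least 3 of 8 mesenchymal markers at 5 FPKM or more, a gate chosen after the data were seen. In these mesenchymal-like cells Ldha was in 9 of 9 (111 to 1808 FPKM, median 487) and Ldhb in 4 of 9 (median 0, highest 345), so that Ldha made up 63.2 to 100% of the pair. Aldoc and Eno2 were listed at 0 in all 9 (a count of 0 that allows up to 33.3% of such cells with a listed value, uncaptured transcripts aside) and Aldoa was in all 9 (86.5 to 425 FPKM). Slc2a1 was detected in 1 of 9 cells, against 52 of 70 mutant epithelial cells. P4ha1, the collagen prolyl hydroxylase, was detected in 7 of 9 (median 51.5 FPKM, highest 197), against 17 of 70. The 1 wild-type cell of this kind had 262 FPKM of Ldha, 0 of Ldhb, 17.05 of P4ha1 and 2566 of Mif, and as a single cell it gives no comparison.

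Slc16a3 was above 0 in that cell (8.99 FPKM) and in 1 of the 9 mutant mesenchymal-like cells (42.96 FPKM), while it was listed at 0 in every Foxi1-low epithelial and Foxi1-high cell.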
